A study of Rattus norvegicus with 6 samples.

Results

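The transcripts described here are ENSRNOT00000076204.2, named Asph, and ENSRNOT00000090808.1, named Calu. They are 2 of the 31715 transcripts quantified in basilar artery smooth muscle cells of rats. Both were chosen by their own counts in the comparison of the high-salt diet with the control diet, Asph for higher and Calu for lower counts, so their differences between the diets are descriptions and carry no test. The names came with these identifiers. None of the identifiers could be paired with gene symbols in the annotation used here (0 of 31715), so the other genes of the reticulum and the markers of smooth muscle, endothelial and other cells were not analysed here.

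Both genes encode calcium-handling proteins of the endoplasmic and sarcoplasmic reticulum, the store from which smooth muscle releases calcium to contract. The Asph gene gives rise, through alternative promoters and splicing, to the enzyme aspartate beta-hydroxylase, to junctin, which binds calsequestrin and the ryanodine receptor, and to junctate, a calcium-binding protein of the reticulum membrane. Calumenin, the product of Calu, is a calcium-binding protein of the EF-hand type that resides in the lumen of the reticulum and the secretory pathway. Which protein either transcript encodes was not analysed here, because transcript sequences were not used.

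The control group comprised 3 male Sprague-Dawley rats on normal chow, and the high-salt diet group comprised 3 such rats on the same chow with 4% (w/w) NaCl added for 4 weeks, after which systolic blood pressure was raised. All were 6 weeks old and weighed 180 to 200 g when purchased, and each library came from the basilar artery of 1 rat after mechanical removal of the endothelium. Poly(A) RNA was sequenced, and the values are estimated counts per transcript. Control replicates 1, 2 and 3 held 12896098, 24718338 and 23198636 counts, and high-salt replicates 1, 2 and 3 held 16159272, 19522923 and 20589033. Levels are given as CPM, the counts scaled to a common library size after normalisation. A level of 3 counts, taken as the floor of a library, ranged from 0.119 CPM (control replicate 2) to 0.254 CPM (control replicate 1), a limit that covers counting error only.

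The Asph transcript was seen in the high-salt diet group alone. Its estimated counts were 64.7, 287 and 17.8 in high-salt replicates 1, 2 and 3, and they rounded to 0 in each of the 3 control libraries. The high-salt levels were 3.54, 15.1 and 0.868 CPM, all above the floor, and the groups did not overlap. High-salt replicate 2 carried 77.4% of the summed level of its group, and the SD of the high-salt diet group exceeded its mean (6.51 ± 7.57 CPM, SD, n = 3). That library also stood apart in having the fewest transcripts with at least 1 count, 16806 beside 18937 to 21092 in the other libraries. Whether this bears on the Asph level was not tested. Set against the mean control floor of 0.168 CPM, taken per library, the mean high-salt level was at least 38.6-fold higher, and at least 13.1-fold without high-salt replicate 2. In these bulk samples, fewer cells of a type and less RNA per cell cannot be told apart.

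The Calu transcript was seen in 2 control libraries alone. Its estimated counts were 18.9 in control replicate 1, 538 in control replicate 2 and 0 in control replicate 3, and all 3 high-salt libraries had 0. The control levels were 1.60, 21.3 and 0 CPM, so control replicate 3 could not be distinguished from the high-salt diet group and the groups overlapped. Control replicate 2 held 93.0% of the summed level of its group, and again the SD exceeded the mean (7.64 ± 11.9 CPM, SD, n = 3). Although it was the deepest library, it had the fewest transcripts with at least 1 count of the control libraries. It had 18937, beside 21092 and 20115 in control replicates 1 and 3, and whether this bears on the Calu level was not tested. The mean control level was at least 48.9-fold above the mean high-salt floor of 0.156 CPM, again taken per library, and at least 5.13-fold without control replicate 2.

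**Figure D1:**
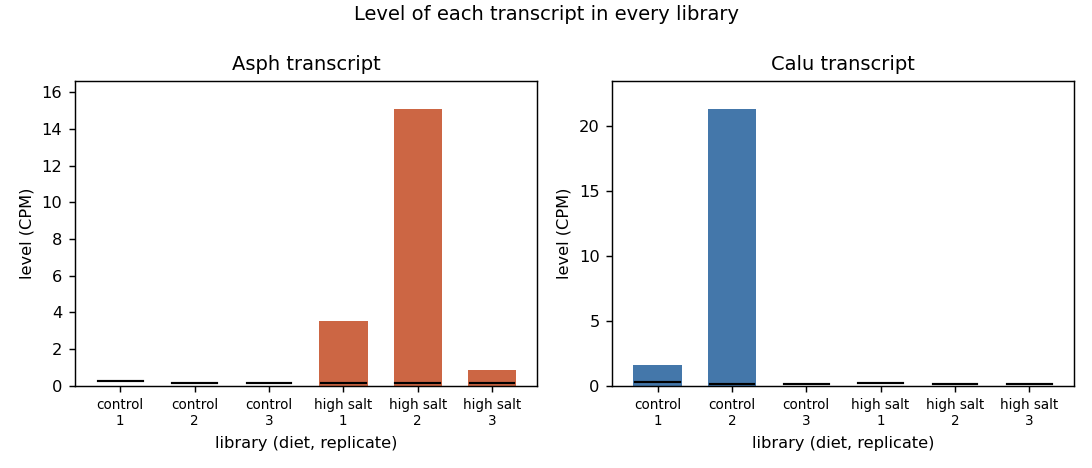
Level of the Asph transcript (left) and the Calu transcript (right) in CPM on a linear axis, with a bar for each of the 3 control (blue) and 3 high-salt (orange) libraries and a black line at the level of 3 counts in that library. High-salt replicate 2 reached 15.1 CPM for Asph and control replicate 2 reached 21.3 CPM for Calu, and these bars were far above those of the other libraries.

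Patterns of this kind were uncommon across the 24253 transcripts with at least 1 rounded count, but they were not limited to these transcripts. The Asph pattern, with 0 counts in all control libraries and at least 3 in every high-salt library, was met by 18 transcripts (0.0742%), and its mirror image by 32 (0.132%). The Calu pattern, with 0 counts in all high-salt libraries and in 1 control library and at least 3 in the other 2, was met by 185 transcripts (0.763%), and its mirror image by 115 (0.474%). All 3 high-salt levels lay above all 3 control levels for 524 transcripts (2.16%), among them 1 of the 2 described here, Asph. In the exact test of edgeR, 140 transcripts (0.577%) were higher under high salt and 157 (0.647%) lower, at an unadjusted p under 0.05 with a change of at least 2-fold. Asph is 1 of the first and Calu 1 of the second, as their choice requires, and nothing is read from it. With the replicate number as a block in the quasi-likelihood test of edgeR, these counts were 83 and 82, and without the block 53 and 65. Without high-salt replicate 1 the exact test gave 241 and 281, and without control replicate 2 it gave 83 higher and 140 lower.

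The transcripts nearest to each in pattern were sought by Pearson correlation of log2(CPM + 1) over the 6 libraries, among those with a mean of at least 1 CPM. For Asph they were ENSRNOT00000075504.2 (r = 0.994) and ENSRNOT00000010018.4 (r = 0.982), of 17146 compared. The first had 0 counts in every control library and 29.6, 152 and 15.2 in high-salt replicates 1, 2 and 3. Counts of the second were 6, 16 and 8 under the control diet and 26, 47 and 19 under high salt, which means it was present under both diets. For Calu they were ENSRNOT00000093332.1 (r = 0.996) and ENSRNOT00000043005.2 (r = 0.987), of 17147 compared. Counts of ENSRNOT00000093332.1 were 12.6, 129 and 0 under the control diet and 0 in each high-salt library. Those of ENSRNOT00000043005.2 were 16.2, 440 and 13 under the control diet and 7.55, 0 and 5.85 under high salt. All of these had their highest count in the replicate 2 library of the diet in which they were higher, as Asph and Calu did. Their choice for likeness to Asph or Calu makes this likely, so nothing is read from it. The correlations are descriptions, since the highest of so many are picked from 6 libraries.

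Whether the Calu transcript divides reads with others was examined next. Kallisto assigns a read that fits several transcripts in fractions, so transcripts that share reads with each other and with no others have non-whole counts that add up to whole numbers. The Calu transcript formed such a group with the row before it, ENSRNOT00000008356.5, and the row after it, ENSRNOT00000008972.6. Their 3 counts summed to within 0.007 of a whole number in every library. The sums were 3291, 8142 and 8069 counts in control replicates 1, 2 and 3 and 7479, 7032 and 6227 in high-salt replicates 1, 2 and 3. Sharing of reads points to shared sequence, but the gene of the neighbouring rows is not given by the identifiers.

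The Calu transcript held a small part of this sum wherever it was seen. Its share was 0.575% in control replicate 1 (95% Wilson interval 0.370% to 0.90%) and 6.60% in control replicate 2 (6.09% to 7.17%). In control replicate 3 it was 0 of 8069 counts, which allows up to 0.0372%. For high-salt replicates 1, 2 and 3 the limits that a count of 0 allows were 0.0401%, 0.0427% and 0.0482%, and pooling the 20738 counts of the high-salt diet group lowered the limit to 0.0145%. These intervals and limits cover counting error only and not the uncertainty of dividing the reads, and the shares are of counts, not corrected for transcript length. The mean control share was 2.39% ± 3.66 (SD, n = 3), and it was 0.287% without control replicate 2.

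Most of the counts belonged to ENSRNOT00000008356.5. It held 74.4%, 72.7% and 73.7% of the sum in control replicates 1, 2 and 3 and 72.6%, 62.0% and 75.3% in high-salt replicates 1, 2 and 3, so 5 of the 6 libraries lay within a narrow band and high-salt replicate 2 lay below it. ENSRNOT00000008972.6 held 25%, 20.7% and 26.3% in the control libraries, with its lowest share in control replicate 2, where the Calu transcript had its highest. With the counts of these 2 rows added together, control replicate 2 stood at 27.3%, beside 25.6% and 26.3% in the other control libraries. In high-salt replicates 1, 2 and 3 the share of ENSRNOT00000008972.6 was 27.4%, 38.0% and 24.7%. Its mean share was 24.0% ± 2.95 (SD, n = 3) under the control diet and 30.0% ± 7.04 (SD, n = 3) under high salt. The difference was 6.03 percentage points (two-sided exact permutation test, p = 0.3, Benjamini-Hochberg adjusted p = 0.5 over 5 comparisons of sums and shares). Without high-salt replicate 2 the difference was 2.04 points. Calu was chosen for its control counts, and these lower the share of ENSRNOT00000008972.6 in the control libraries. Part of the difference is therefore built in, and nothing is read from the test. The share of ENSRNOT00000008356.5, the rest of the sum beside these rows, differed by -3.63 points. With 3 rats in each group, no such test can give a p below 0.1.

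**Figure D2:**
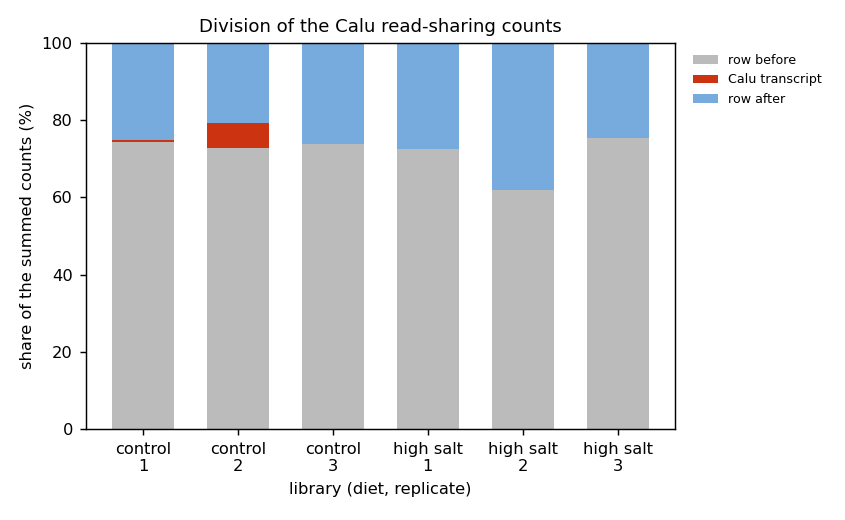
Share of the summed counts (%) held by each of the 3 read-sharing rows in each library, stacked to 100%, with ENSRNOT00000008356.5 in grey, the Calu transcript in red and ENSRNOT00000008972.6 in blue. The red part is 6.60% in control replicate 2, 0.575% in control replicate 1 and 0 in the other 4 libraries, and the grey part is lowest, at 62.0%, in high-salt replicate 2.

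The sum of the Calu group was not shown to move with diet. Its levels were 279, 323 and 356 CPM in control replicates 1, 2 and 3 and 409, 370 and 304 CPM in high-salt replicates 1, 2 and 3, and the groups overlapped. The means were 319 ± 38.5 CPM (SD, n = 3) and 361 ± 53.4 CPM (SD, n = 3), respectively. On the log2(CPM + 1) scale the sum was 0.17 higher under high salt (exact permutation test, p = 0.4, adjusted p = 0.5), whereas the Calu transcript itself was different by -1.95. The sum holds Calu, which was chosen for counts under the control diet alone and adds to the control sums. Tests of the sum are therefore not independent of that choice. The same-numbered pairs differed by 0.55, 0.20 and -0.23, so the high-salt library was the higher in 2 of 3 pairs. The exact test of edgeR, fitted on the whole table with the 3 rows replaced by their sum, returned a log2 fold change of 0.18 (adjusted p = 1). The 95% interval of the log2 fold change from DESeq2 was -0.39 to 0.74, which reaches from 0.764-fold to 1.67-fold. A moderate change in either direction was therefore not excluded. Among all rows so tested, 1 of 24251 (0.00412%) had an adjusted p under 0.05 in the exact test of edgeR, and the sum was not that row. The replicate 1 libraries had the lowest control level and the highest high-salt level. Leaving out both, a choice made after these levels were seen, could only lower the difference, which was then -0.015 on the log2(CPM + 1) scale. It was 0.081 without control replicate 1 alone and 0.079 without high-salt replicate 1 alone.

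The Calu group was also summed without the Calu transcript. Since Calu was chosen for counts under the control diet alone, leaving it out could only lower the control sums. The differences with and without it are therefore not compared. The sum of the other rows differed by 0.21 on the log2(CPM + 1) scale (exact permutation test, p = 0.2, adjusted p = 0.5). For ENSRNOT00000008356.5 the levels were 235 ± 27.3 CPM and 252 ± 39.3 CPM (SD, n = 3 each), and the edgeR exact test gave a log2 fold change of 0.10 (adjusted p = 1). ENSRNOT00000008972.6 had 76.7 ± 14.6 CPM and 109 ± 33.0 CPM (SD, n = 3 each), and the log2 fold change by the edgeR exact test was 0.51 (adjusted p = 1), or 0.29 without high-salt replicate 2. It was higher under high salt in 2 of 3 same-numbered pairs, and the DESeq2 interval for its log2 fold change was -0.25 to 1.27.

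For the Asph transcript no read-sharing group was found. Within 8 rows on either side, 11 other rows had non-whole counts, and none of the 2047 sets formed from them added up with Asph to whole numbers within 0.01 in all 6 libraries. A share of a read-sharing sum can therefore not be given for Asph. In its place, the unbroken run of rows with counts around it was summed, a choice made after the data were seen. This block held 5 rows, namely Asph, ENSRNOT00000076426.2 before it and ENSRNOT00000076507.2, ENSRNOT00000077044.2 and ENSRNOT00000047805.4 after it. Its sums lay 0.345, 0.0376 and 0.0648 from a whole number in control replicates 1, 2 and 3 and 0.178, 0.428 and 0.424 in high-salt replicates 1, 2 and 3. The block was therefore not closed, and neither the gene of these rows nor their sharing of reads with Asph was shown.

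Within the block, Asph held 13.6% of the counts in high-salt replicate 1 (95% Wilson interval 10.9% to 17.0%), 26.5% in replicate 2 (24.0% to 29.3%) and 2.14% in replicate 3 (1.37% to 3.39%). In control replicates 1, 2 and 3, counts of 0 after rounding allow shares of up to 0.753%, 0.201% and 0.257%. The shares are descriptions, as Asph was chosen for this pattern, and their intervals and limits cover counting error only, not the division of reads, which is less certain here because the block was not closed. ENSRNOT00000076426.2 was the most abundant row of the block in 5 of the 6 libraries, with 11.1, 46.3 and 40.0 CPM in control replicates 1, 2 and 3 and 13.2, 33.0 and 34.2 CPM in high-salt replicates 1, 2 and 3. Its low values belonged to the replicate 1 libraries of both diets, and the groups overlapped. In control replicate 1 the most abundant row was ENSRNOT00000077044.2, which had 22.6, 10.9 and 8.85 CPM in the control and 9.12, 3.66 and 5.58 CPM in the high-salt libraries. That row was lower under high salt in each of the 3 same-numbered pairs, but the groups overlapped, and its log2 fold change of -1.20 did not pass the edgeR exact test (adjusted p = 1) and was -0.70 without control replicate 1. The quasi-likelihood test of edgeR blocked on replicate gave it a log2 fold change of -1.19 with an unadjusted p = 0.0468 and an adjusted p = 0.992. That same-numbered libraries are pairs is uncertain, since the labels name nothing they share. ENSRNOT00000076507.2 had 0, 1.08 and 1.99 CPM in the control and 0, 5.19 and 0 CPM in the high-salt libraries. ENSRNOT00000047805.4 was below 1 CPM in every library.

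**Figure D3:**
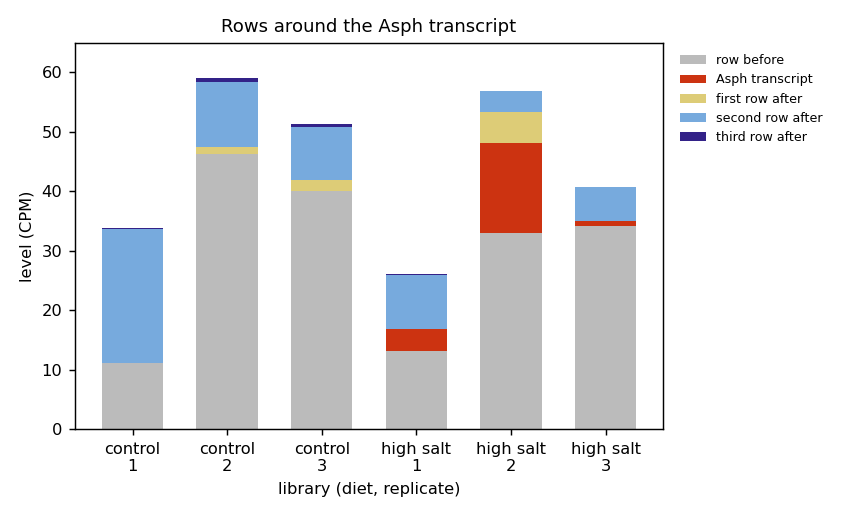
Level (CPM) of the 5 rows of the Asph block in each library, stacked in row order, with Asph in red, ENSRNOT00000076426.2 in grey, ENSRNOT00000076507.2 in yellow, ENSRNOT00000077044.2 in light blue and ENSRNOT00000047805.4 in dark blue. Asph appears in the 3 high-salt libraries, at 3.54, 15.1 and 0.868 CPM, and the height of the whole stack is lowest in the replicate 1 library of each diet.

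The summed block was not shown to differ between the diets. It reached 33.8, 59.1 and 51.3 CPM in control replicates 1, 2 and 3 and 26.0, 56.9 and 40.7 CPM in high-salt replicates 1, 2 and 3, with means of 48.1 ± 13 CPM and 41.2 ± 15.4 CPM (SD, n = 3 each). On the log2(CPM + 1) scale the high-salt diet group was different by -0.25 (exact permutation test, p = 0.6, adjusted p = 0.6), while Asph alone was different by 2.37. The block holds Asph, which was chosen for counts under high salt alone and adds to the high-salt sums. Tests of this sum are therefore not independent of that choice, and they cannot show that the block was unchanged. The pair differences were -0.36, -0.05 and -0.33, so the block was lower in 3 of 3 pairs. The exact test of edgeR returned -0.22 as the log2 fold change (adjusted p = 1), and the 95% interval from DESeq2 was -1.13 to 0.70. Without high-salt replicate 1 the difference was 0.039, and without the replicate 1 libraries of both diets, which were the lowest of their groups, it was -0.19.

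The block was also summed without Asph, a choice made after the data were seen. Since Asph was chosen for counts under high salt alone, leaving it out could only lower the high-salt sums, and the differences with and without it are not compared. The means were 48.1 ± 13 CPM under the control diet and 34.7 ± 10.6 CPM under high salt (SD, n = 3 each), and the groups overlapped. On the log2(CPM + 1) scale the difference was -0.47 (exact permutation test, p = 0.3, adjusted p = 0.5), and the pair differences were -0.57, -0.49 and -0.36, lower under high salt in 3 of 3 pairs. The exact test of edgeR returned a log2 fold change of -0.47 (adjusted p = 1), and the DESeq2 interval was -1.35 to 0.41. With the replicate block, the quasi-likelihood test of edgeR gave -0.49 (unadjusted p = 0.0761, adjusted p = 0.992). Without the block that test gave -0.47 (unadjusted p = 0.249). The pairs and the replicate block rest on the library numbers, for which the labels name nothing shared. The DESeq2 interval reaches from 0.393-fold to 1.33-fold. A fall of these rows was therefore not shown, and one of more than 2-fold was not excluded.

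**Figure D4:**
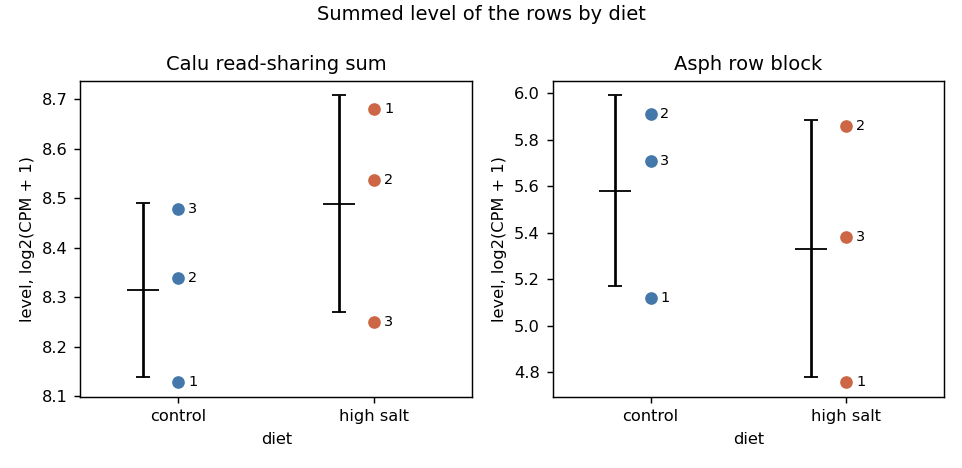
Level of the Calu read-sharing sum (left) and of the Asph row block (right) on the log2(CPM + 1) scale by diet, with a numbered point for each replicate and the mean with its SD (n = 3) beside the points in black. The axes do not start at 0, and the points of both diets overlap in both panels, with differences of 0.17 and -0.25 between the means.

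The division of reads seen for Calu was then set beside that of other read-sharing groups. The search over all rows found 1884 groups of adjacent rows with a mean of at least 1 CPM and at least 3 counts in every library, which together held 4779 transcripts with counts. The share of a transcript in its group ranged over a median of 24.5 percentage points across the 6 libraries, and over 14.3 points within the 3 control libraries alone. The share of the Calu transcript ranged over 6.60 points, and its small mean share leaves little room for a wider range. Of the 4779 transcripts, 30 (0.628%), Calu among them, had 0 counts in all high-salt libraries and at least 3 in 2 or more control libraries, and 24 had the opposite pattern. Both patterns together made up 1.13% of the 4779. The same rule was not counted over all 24253 transcripts, so the groups are not compared with them. For these 54 transcripts the median absolute difference between the diets was 0.84 on the log2(CPM + 1) scale, and that of the sums of their groups was 0.14. The sum differed by less than 0.5 for 48 of them (88.9%), and it had the sign of the transcript for 31. Each sum holds the picked transcript, so a shared sign is partly built in and nothing is read from it. Over all 1884 groups the median absolute difference of the sum was 0.21, and 1663 sums (88.3%) differed by less than 0.5, so small differences of the sum were usual for any group. These transcripts are picked by the diet contrast, so their differences are not tested.

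**Figure D5:**
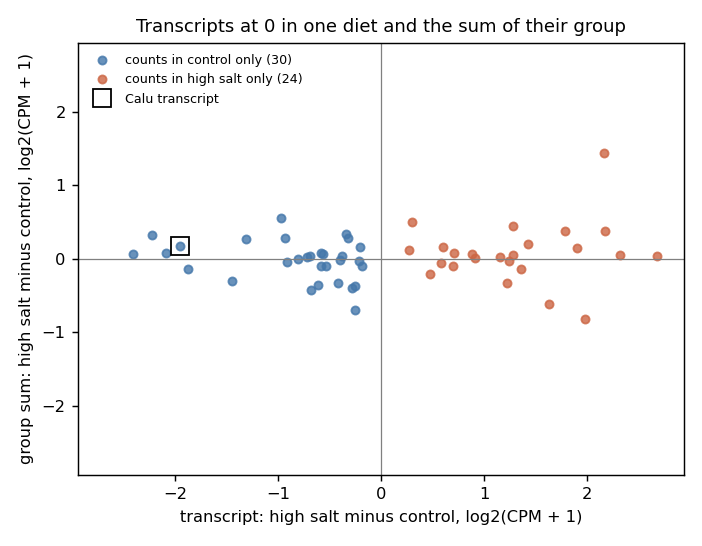
Difference between the diets (high salt minus control, log2(CPM + 1)) of 54 transcripts that had 0 counts under 1 diet (horizontal axis) and of the sum of the read-sharing group each belongs to (vertical axis), with 30 transcripts seen in control in blue and 24 seen in high salt in orange. The Calu transcript, marked by a square, lies at -1.95 and its sum at 0.17, and most of the sums lie near 0.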

How the data were processed

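Basilar artery smooth muscle RNA of 6 rats was sequenced, and the authors deposited estimated counts per transcript, not scaled for depth or length. Per the submitters' notes and methods, reads were trimmed with Trimmomatic, checked with FastQC and mapped to Rnor_6.0 with HISAT2 2.0.13, and Kallisto gave the counts; how these steps were joined is not given in the sources used here. Here counts were rounded, scaled by the trimmed mean of M values and compared with the exact test of edgeR 4.0.16 (R 4.3.3), with Benjamini-Hochberg adjustment over 24253 transcripts. Sums replaced their rows before refitting. DESeq2 1.42.0 and the quasi-likelihood test of edgeR, on transcripts left by its expression filter, were alternatives. Exact permutation tests used scipy 1.17.1. The procedures were also run on simulated data, but no outcome is reported here, so nothing is read from that. Read-sharing groups were adjacent rows, within 8 rows, whose counts summed to whole numbers within 0.01; the table holds 6 significant digits. Named transcripts were the described ones, the rows of their groups and the 2 most correlated with each. Members and lists were chosen with earlier results of these data known. Same-numbered libraries deviated together from their group means (r = 0.596, 0.230 and 0.296 for replicates 1, 2 and 3 across 21778 transcripts, which are not independent). By a threshold of 0.1 the numbers were therefore taken as pairs, although the labels name nothing shared. Control replicate 2 correlated more with high-salt replicate 3 (r = 0.264), and control replicate 3 with high-salt replicate 2 (r = 0.170) also passed the threshold. The check therefore does not separate the pairs numbered 2 and 3.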

Additional observations from a re-analysis of the deposited data

How the results depend on the processing

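The fitted log2 fold changes of transcripts at 0 in 1 diet depend on the prior count and are not bounds. For Asph it was 10, with 8.45 to 10.51 when each library was left out. For Calu it was -10.23, with -10.82 to -6.92, the last without control replicate 2. Calu did not pass the expression filter, so 1 of the 2 transcripts, Asph, had a value in the filtered exact test, the quasi-likelihood test, the replicate block and DESeq2, and Asph passed through the diet in which it was high.

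The Calu sum kept its direction and had no adjusted p under 0.05 in 15 alternatives of the count tests (0.07 to 0.29 with each library left out, 0.17 with the replicate block, 0.05 with ENSRNOT00000008356.5 and 0.37 with ENSRNOT00000008972.6 as the only other row). Without both replicate 1 libraries, a choice made after seeing the data, its log2(CPM + 1) difference was -0.015. The Asph block, with log2 fold changes of -0.53 to 0.017 and log2(CPM + 1) differences of -0.51 to 0.039 when each library was left out, turned without high-salt replicate 1, but was -0.19 without both replicate 1 libraries; the cause was not tested. Without Asph the block stayed negative in every alternative run (log2 fold changes of -0.67 to -0.24 with each library left out). Among single rows, ENSRNOT00000008356.5 ranged from -0.041 to 0.19 with each library left out and was -0.12 without both replicate 1 libraries, ENSRNOT00000076426.2 ranged from -0.69 to 0.062, and ENSRNOT00000076507.2 ranged from -7.34 to 1.68 and was -1.36 with the replicate block. ENSRNOT00000008972.6 (0.29 to 0.72), ENSRNOT00000077044.2 (-1.62 to -0.70) and ENSRNOT00000047805.4 (-6.21 to -2.38) kept their sign. The block took ENSRNOT00000077044.2 to an unadjusted p = 0.0468 in the quasi-likelihood test of edgeR (adjusted p = 0.992), and changed no other call described here.

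At an unadjusted p under 0.05 and 2-fold, 140 transcripts were higher and 157 lower. These numbers were 53 and 65 in the quasi-likelihood test, 83 and 82 with the replicate block, 62 and 71 with the expression filter, 96 and 92 in DESeq2, 228 and 164 without both replicate 1 libraries, and 83 to 241 and 110 to 281 with each library left out. At an adjusted p under 0.05 the exact test of edgeR gave 1 transcript, or 2 with the expression filter, 3 to 12 with each library left out and 31 without both replicate 1 libraries, DESeq2 gave 6, and the quasi-likelihood test gave 0 without and 0 with the block, where 141 and 327 had an unadjusted p under 0.05. A tolerance of 0.005 missed the Calu group, whose sums lay up to 0.007 from whole numbers. Among the libraries with 0 counts of Calu, the limit on its share was highest in high-salt replicate 3, at 0.0482%.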
